A study of Mus musculus with 56 samples.

Results

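The 5 genes described here were Nfat5, Akr1b3, Slc5a3, Slc6a12 and Slc6a6, genes of the transport, synthesis and control of organic osmolytes in the kidney. They were taken by name rather than by a cut on their values, though with earlier results of these data known. All 5 were found among the 17027 genes of the kidney expression table and had whole reads. They passed the filter of a mean of at least 1 TPM (a share of the library's reads scaled by gene length), which left 11966 genes for testing. The kidneys came from 56 female C57BL/6J mice aged 9 weeks that were kept in a light-dark cycle and fed for 7 days under one of a pair of regimens: daytime-restricted feeding (DRF), with food in the light phase, or nighttime-restricted feeding (NRF), with food in the dark phase. Collection was at ZT0, 4, 8, 12, 16, 20 and 24 (ZT, zeitgeber time, counts the hours from lights on), with 4 mice per regimen and time point, so that each regimen had 28 libraries in 7 groups. All mice were of 1 strain and 1 sex, NRF was taken as the reference regimen, and mice fed without restriction were not analysed here. Poly(A) RNA of the whole organ was sequenced, and reads recovered from the deposited values totalled 20.98 to 23.6 M per library (M for mega).

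Cells of the renal medulla sit in a fluid that becomes strongly hypertonic when urine is concentrated. They balance it with small organic solutes that do not disturb proteins: sorbitol, myo-inositol, betaine, taurine and glycerophosphocholine. NFAT5, also called TonEBP, is the transcription factor that raises the genes for these solutes when tonicity rises. Akr1b3 encodes aldose reductase, which makes sorbitol from glucose. Slc5a3 encodes SMIT, the sodium-coupled myo-inositol transporter. Slc6a12 encodes BGT1, the betaine transporter, and Slc6a6 encodes TauT, the taurine transporter, which is also abundant outside the medulla.

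The core letters bound by NFAT proteins, TGGAAA, were searched on both strands in the RefSeq promoter windows of GRCm38.p6, which run from 250 bases before to 50 bases after an annotated start. Windows were listed for Nfat5, Slc5a3 and Slc6a12. Akr1b3 and Slc6a6 were not in the promoter table. The Slc6a12 window at the first annotated start, chr6:121342324-121342623 on the plus strand, held 1 match, and it is printed because it was the only window of these genes with one and because Slc6a12 had the widest fitted daily swing of the 5 genes. The capitals mark the match, whose first base lies at position -75 from the start.

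Slc6a12: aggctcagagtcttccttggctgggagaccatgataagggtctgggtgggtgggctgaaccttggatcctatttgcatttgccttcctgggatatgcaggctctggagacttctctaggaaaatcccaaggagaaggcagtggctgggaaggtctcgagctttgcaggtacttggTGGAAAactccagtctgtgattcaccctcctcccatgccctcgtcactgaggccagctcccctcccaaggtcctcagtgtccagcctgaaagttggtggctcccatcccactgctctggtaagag

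The other windows of Slc6a12, that of Nfat5 (chr8:107293220-107293519) and that of Slc5a3 (chr16:92058072-92058371) did not hold these letters. The 6 letters are common: 21.4% of the 32851 full-length windows and 23.9% of the 27025 genes with a window held them. The match is a description of sequence and gives no measure of binding.

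Levels of the 5 genes differed in size and, more so, in how far they spread between mice of a group. Nfat5 lay between 24.7 and 76.2 TPM with a median of 38.1 TPM. Slc6a6 was the steadiest, between 137 and 268 TPM, and the median coefficient of variation within its 14 groups was 8.08%. By contrast, the sorbitol enzyme and the betaine transporter varied widely among mice treated alike. Akr1b3 ranged from 12.2 to 446 TPM, a ratio of 36.5, with a median coefficient of variation of 105%. Slc6a12 ranged from 0.0494 TPM, which was 1 read, to 30.3 TPM, which was 607 reads, and its median coefficient of variation was 91.4%. Slc5a3 lay between 43.8 and 283 TPM with a coefficient of 28.9%, and for Nfat5 it was 20.8%. Levels of different genes depend on the exon length used for each (8384 bases for Akr1b3, 3052 bases for Slc6a12) and are compared here within genes.

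**Figure D1:**
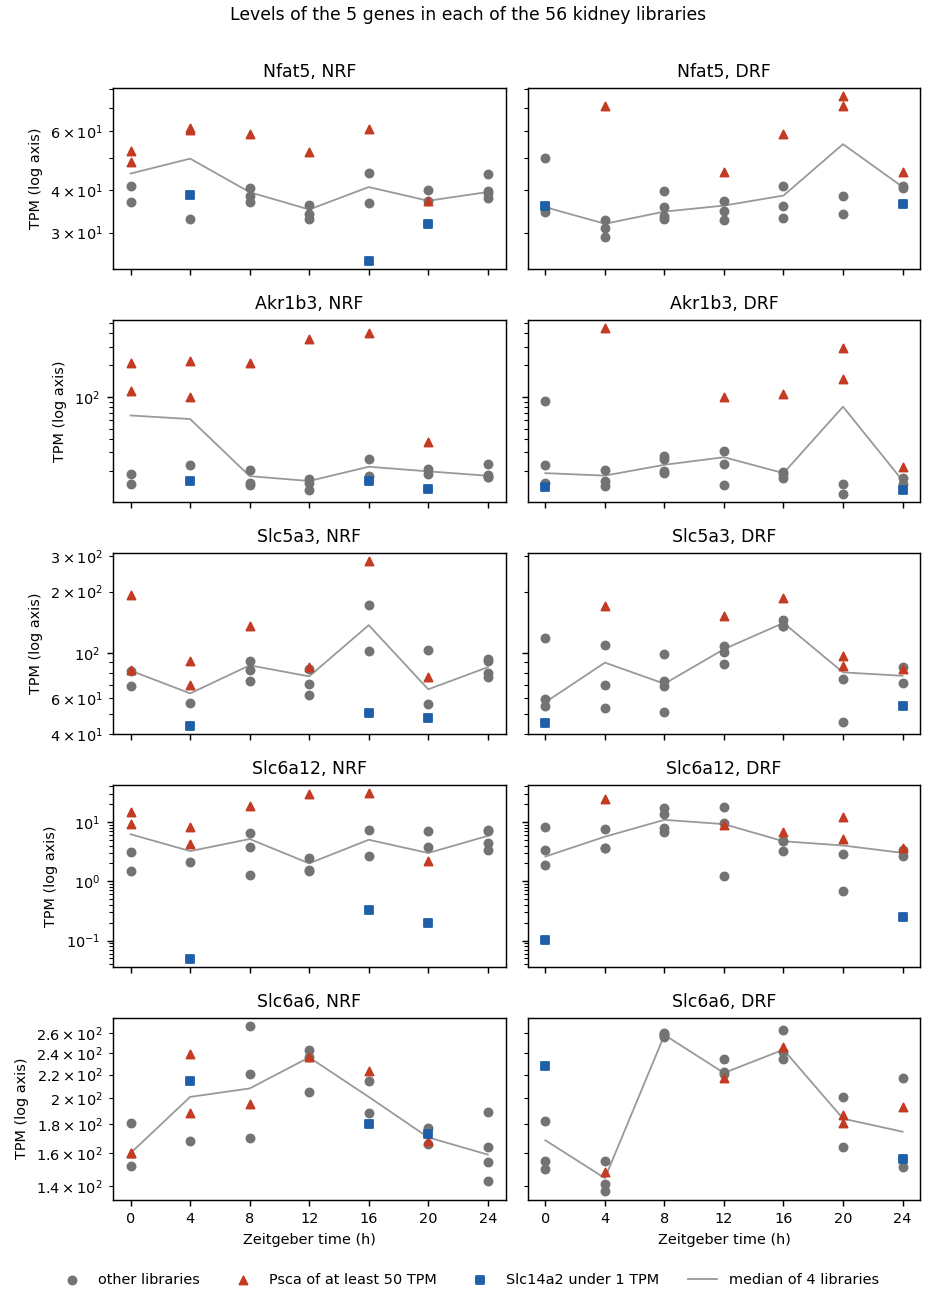
TPM (vertical, log axis) of the 5 genes in every library against zeitgeber time in hours, with NRF on the left and DRF on the right and a line through the medians of 4 libraries. Triangles are the 14 libraries with Psca of at least 50 TPM, which hold the high Akr1b3 values of up to 446 TPM, and squares are the 5 libraries with Slc14a2 under 1 TPM, which hold Slc6a12 values of 0.0494 to 0.331 TPM.

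There were 3 sets of libraries that stood apart in tissue composition. Psca, a gene of the urothelium that lines the renal pelvis, was at 50 TPM or more in 14 libraries, 6 DRF and 8 NRF, and Slc14a2, the urea transporter gene of the inner medullary collecting duct, was under 1 TPM in 5 libraries (DRF ZT0 replicate 2, DRF ZT24 replicate 4, and replicate 1 of NRF ZT4, ZT16 and ZT20). The summed level of 6 urothelium markers (Upk3a, Psca, Upk1a, Upk1b, Upk2 and Krt5) ran from 2.43 to 985 TPM across libraries, with Upk3a, Upk2 and Krt5 at 0 in some, and that of 4 inner medulla markers (Slc14a2, Aqp4, Slc4a11 and Fxyd4) ran from 65.9 to 624 TPM. The other marker sums ran from 4130 to 10700 TPM for the thick ascending limb, 3960 to 7960 TPM for the proximal tubule, 271 to 564 TPM for podocytes and 4.35 to 7.67 TPM for the adrenal gland. The adipose tissue markers (Adipoq, Plin1 and Cidec) varied most, from 0.278 to 782 TPM in sum, with Adipoq and Plin1 at 0 in some libraries, and 13 libraries (5 DRF and 8 NRF, 6 of them also Psca-rich) were at 50 TPM or more. None of the 6 urothelium and none of the 4 inner medulla markers was called by limma in any comparison between groups. Their spread was wide, with a median coefficient of variation within groups of 140% for Psca and Upk3a and 82% for Slc14a2. These tests could therefore miss large differences and do not show that the groups were equal in composition. The group median of the inner medulla sum ran from 139 TPM (DRF ZT0) to 383 TPM (DRF ZT20). In bulk tissue, fewer cells of a type and less RNA per cell cannot be told apart.

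Of the 5 genes, 4 followed those markers from mouse to mouse. For each library the deviation of log2(TPM + 1) from the mean of its group was taken, and 20 relations over 56 libraries were tested by permutation with 100000 resamples (2-sided, adjusted over the 20). Akr1b3 followed Psca most closely, with a Pearson r of 0.91 and a Spearman rho of 0.88, and Slc6a12 followed the mean of the inner medulla markers most closely, with an r of 0.9 and a rho of 0.89. Nfat5 gave an r of 0.83 with Psca (rho 0.8) and 0.83 with the inner medulla markers (rho 0.85). For Slc5a3 the r was 0.7 with Psca (rho 0.73) and 0.85 with the inner medulla markers (rho 0.84). With Upk3a the r was 0.77 for Nfat5, 0.82 for Akr1b3, 0.65 for Slc5a3 and 0.76 for Slc6a12. These 4 genes had a permutation p of 1e-05 for r and for rho in all 16 relations, the smallest that the resamples can give (adjusted p = 1.2e-05). Without the 2 libraries farthest from the median of the marker, r stayed between 0.65 and 0.89.

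Slc6a6 did not share this pattern. Its r was 0.01 with Psca, 0.05 with Upk3a and -0.11 with the inner medulla markers, and its rho was -0.01, 0.05 and -0.11 (adjusted permutation p = 0.95, 0.83 and 0.63 for r and 0.93, 0.81 and 0.59 for rho). On other scalings of the libraries the r with Psca became -0.26 (median of ratios) and -0.29 (deposited values). With the inner medulla markers it became -0.37 and -0.42, so the size of this r depended on the scaling. A positive relation to Psca was common among all 11966 genes, whose median r was 0.29. Only 0.284% of genes had a higher r with Psca than Akr1b3, and the share was 1.92% for Nfat5, 3.28% for Slc6a12, 8.5% for Slc5a3 and 72% for Slc6a6. Libraries with more of these markers had less of the proximal tubule ones, which gave an r of -0.45 with Nfat5, -0.5 with Akr1b3, -0.57 with Slc5a3 and -0.64 with Slc6a12, and 0.17 with Slc6a6. With the mean of the adipose tissue markers the r was 0.45 for Akr1b3, 0.24 for Slc6a12, 0.17 for Nfat5 and 0.02 for Slc5a3, and 0.39 for Psca itself.

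**Figure D2:**
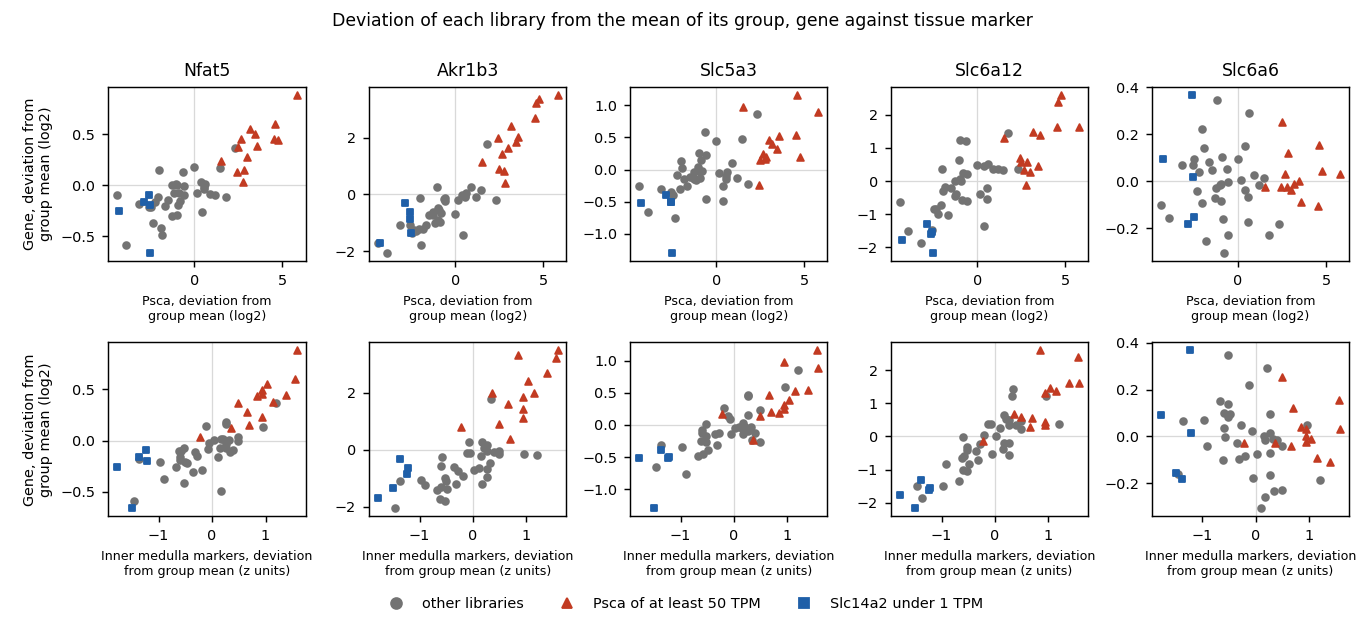
Deviation of each of the 5 genes (vertical, log2) from the mean of its group in each of the 56 libraries, against the deviation of Psca (top row, log2) and of the mean standardised inner medulla markers (bottom row, z units). The clouds rise for Nfat5, Akr1b3, Slc5a3 and Slc6a12, with r from 0.7 to 0.91, and that of Slc6a6 is flat, with r of 0.01 and -0.11.

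The same division appeared when the genes were set against each other within groups. Nfat5 varied with each of 3 of the genes, with an r of 0.86 for Akr1b3 (rho 0.84), 0.8 for Slc5a3 (rho 0.79) and 0.76 for Slc6a12 (rho 0.79). Akr1b3 and Slc6a12 gave 0.81 (rho 0.83), Slc5a3 and Slc6a12 gave 0.78 (rho 0.78), and Akr1b3 and Slc5a3 gave 0.65 (rho 0.67). The adjusted permutation p of these 6 pairs was 2e-05 to 3.3e-05 for r and 1.7e-05 for rho. Slc6a6 gave an r between -0.03 and 0.16 with the other 4 genes (rho -0.02 to 0.1, adjusted permutation p = 0.39 to 0.97 for r). The part that tissue composition has in the 6 shared relations was not tested apart from the values above.

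Median levels in the Psca-rich libraries show the size of this spread. Akr1b3 had a median of 179 TPM in the 14 Psca-rich libraries and 17.6 TPM in the other 42. Nfat5 was at 58.8 and 36.5 TPM, Slc6a12 at 9.13 and 3.4 TPM, and Slc5a3 at 93.9 and 75.4 TPM, whereas Slc6a6 was at 191 and 188 TPM. The 5 libraries with Slc14a2 under 1 TPM held the 5 lowest values of Slc6a12, 0.0494 to 0.331 TPM against at least 0.699 TPM elsewhere. In the same 5 libraries Akr1b3 lay at 13.1 to 16.1 TPM and Slc5a3 at 43.8 to 55.2 TPM.

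To determine whether the genes kept daily rhythms under each regimen, a cosine of 24 h was fitted to the 28 libraries of a regimen with limma, and a gene was called at a Benjamini-Hochberg adjusted p under 0.05 over all genes tested. Under DRF, 3 of the 5 genes were called, Slc6a6, Slc6a12 and Slc5a3, where 36.6% of all genes were. Under NRF the call was made for Slc6a6 alone, where 53% of all genes were called. The amplitude below is the height of the fitted curve above its mean on the log2(TPM + 1) scale, which understates changes at low levels.

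Slc6a6, the taurine transporter gene, was rhythmic under both regimens with a peak around the end of the light phase. Under NRF its libraries lay between 152 and 181 TPM at ZT0, between 205 and 243 TPM at ZT12 and between 166 and 177 TPM at ZT20. All 4 libraries at ZT12 were above all libraries of ZT0, ZT20 and ZT24. The amplitude was 0.24 ± 0.04 (SE) with a peak at ZT10.59 ± 0.7 h (limma, adjusted p = 6.85e-05), a peak-to-trough ratio of 1.4.

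Under DRF the profile of Slc6a6 had a sharp step. The 4 libraries at ZT4 were at 137, 141, 155 and 148 TPM and those at ZT8 at 258, 259, 256 and 261 TPM. These were the lowest and the highest of the 14 group means (145 ± 8 and 258 ± 2.3 TPM, SD, n = 4), a ratio of 1.78, and the step between both was not tested on its own. Levels then stayed at 217 to 234 TPM at ZT12 and 234 to 264 TPM at ZT16, and were at 164 to 201 TPM at ZT20. The fitted amplitude was 0.3 ± 0.06 with a peak at ZT12.97 ± 0.78 h (limma, adjusted p = 0.000564) and a peak-to-trough ratio of 1.52. Both calls of Slc6a6 held under every alternative run.

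**Figure D3:**
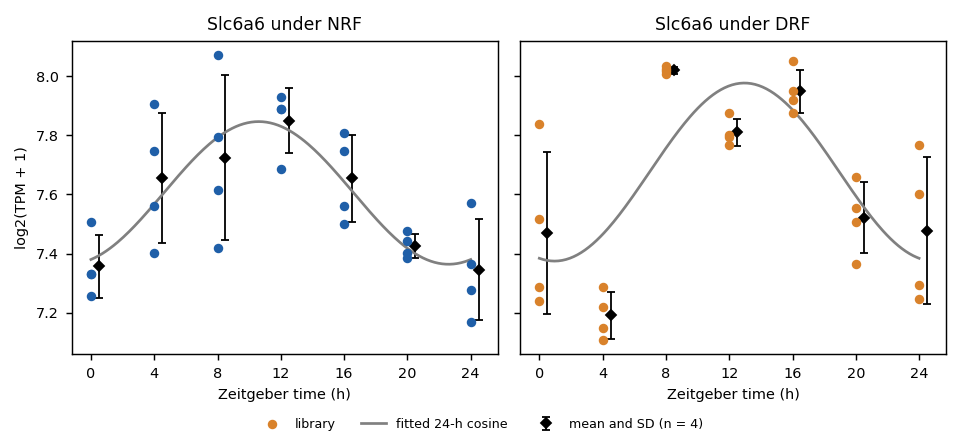
log2(TPM + 1) of Slc6a6 against zeitgeber time in hours under NRF (left) and DRF (right), with 1 point per library, the mean and SD of 4 libraries beside them and the fitted 24-h cosine. The DRF libraries step from 137 to 155 TPM at ZT4 to 256 to 261 TPM at ZT8, and the fitted peaks lie at ZT10.59 and ZT12.97.

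The fitted peak of Slc6a6 was 2.38 ± 1.05 h later under DRF than under NRF. Over the 2967 genes called in both regimens the median absolute shift was 6.1 h. The difference in rhythm, tested over all 56 libraries by letting both terms of the cosine depend on regimen, was not called for Slc6a6 (adjusted p = 0.142) nor for the other 4 genes (0 of 5 by limma, none at an unadjusted p under 0.05, where 46.5% of all genes were called). With all libraries at equal weight and no covariate, a rhythm called in one regimen only is therefore not shown to differ between regimens. Other fits, given below, called this difference for Slc6a12 and Nfat5.

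Slc6a12, the betaine transporter gene, had the widest fitted rhythm under DRF. Its libraries were at 0.103 to 8.15 TPM at ZT0, at 6.79, 7.98, 17.2 and 13.8 TPM at ZT8, and at 0.248 to 3.58 TPM at ZT24. All 4 libraries at ZT8 were above all 4 at ZT24, whereas 1 library at ZT0 overlapped with them. The amplitude was 0.85 ± 0.25 with a peak at ZT9.45 ± 1.16 h (limma, adjusted p = 0.0259), a peak-to-trough ratio of 3.24. This call rested on few mice: it was lost without DRF ZT8 replicate 3 (adjusted p = 0.0524) and without the 5 libraries low in Slc14a2 (amplitude 0.68, adjusted p = 0.0564). Under NRF the fitted amplitude was 0.06 ± 0.33 (adjusted p = 0.989).

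Slc5a3, the myo-inositol transporter gene, was the third called under DRF. At ZT16 its DRF libraries were at 186, 145, 136 and 135 TPM, above all DRF libraries of ZT0, ZT8, ZT20 and ZT24, whose highest was 118 TPM, and overlapping with those of ZT4 and ZT12. The amplitude was 0.41 ± 0.13 with a peak at ZT14.1 ± 1.26 h (limma, adjusted p = 0.0356). A 12-h component added to the 24-h cosine was also called under DRF, with an amplitude of 0.4 ± 0.12 (adjusted p = 0.033). It was the only such call among the 5 genes, where 31.1% of all genes had a 12-h component called under DRF. Under NRF no 12-h component was called for the 5 genes (0 of 5 by limma, none at an unadjusted p under 0.05, and 0.844% of all genes).

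The Slc5a3 calls were close to the threshold. The 24-h fit used the 28 DRF libraries only, so leaving out an NRF library could not change its call. Over the fits that left out 1 library the adjusted p ran from 0.0041 to 0.0821. The call was kept in 46 of these 56 fits, which include all those without an NRF library. It was lost without the 5 libraries low in Slc14a2 (adjusted p = 0.0893) and without the 13 rich in adipose markers (0.44, adjusted p = 0.0737). The libraries whose removal ended it were replicates 1, 2 and 3 of DRF ZT0, replicate 2 of DRF ZT4, replicate 2 of DRF ZT12, all 4 of DRF ZT16 and replicate 4 of DRF ZT24. The 12-h call ended without DRF ZT4 replicate 1 or replicate 4, DRF ZT8 replicate 1, DRF ZT16 replicate 1 or DRF ZT20 replicate 2 (adjusted p = 0.0576 to 0.0756), and without the 14 Psca-rich libraries (0.35, adjusted p = 0.0877). Slc5a3 shares its start and strand with Mrps6, a mitochondrial ribosomal protein gene (chr16:92058322-92087473 and chr16:92058336-92112227), so reads of the overlapping part cannot be told apart. Mrps6 followed Slc5a3 within groups (r = 0.87 over 56 libraries) and the inner medulla markers (r = 0.9), and its own DRF rhythm was called with an amplitude of 0.25 and a peak at ZT13.23 (adjusted p = 0.0177).

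Nfat5, the regulator, and Akr1b3, the sorbitol enzyme gene, were called in neither regimen. For Nfat5 the libraries at DRF ZT20 were at 38.4, 34, 71.2 and 76.2 TPM and those at DRF ZT4 at 31, 29.1, 32.7 and 71.2 TPM. The high ones, both of ZT20 and 1 of ZT4, were Psca-rich libraries with Psca of 304, 444 and 574 TPM. The fitted amplitude of Nfat5 was 0.2 ± 0.09 under DRF (adjusted p = 0.204) and 0.14 ± 0.08 under NRF (adjusted p = 0.335). Leaving out DRF ZT4 replicate 4 alone brought the DRF rhythm to an amplitude of 0.27 (adjusted p = 0.0315) and the difference in rhythm to an adjusted p of 0.0207. With libraries weighted by their quality in limma, which gives less weight to libraries that stand apart, Nfat5 was lower under DRF at ZT4 (-0.74, adjusted p = 0.000566) and higher at ZT20 (0.57, adjusted p = 0.0196), and its difference in rhythm was called (0.31, adjusted p = 0.042). Without the 14 Psca-rich libraries none of these was called: Nfat5 differed by -0.2 at ZT4 (adjusted p = 0.363) and by 0 at ZT20 (adjusted p = 1), and its difference in rhythm was 0.14 (adjusted p = 0.348). In the fit with quality weights Akr1b3 was also lower at ZT4 (-2.08, adjusted p = 0.0365), a sign that turned with Upk3a and Psca as covariate and without the libraries rich in adipose markers. Akr1b3 gave 0.24 ± 0.38 under DRF and 0.27 ± 0.44 under NRF (adjusted p = 0.856 and 0.859), errors larger than the values.

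The 14 group means of each gene were ranked. Neighbours in that order were apart by more than 1 SD in 0 of 13 steps for Nfat5, Akr1b3, Slc6a12 and Slc6a6 and in 1 of 13 for Slc5a3. Steps between so many ranked means are small, so this count does not measure how far the extremes lay apart. For Slc6a6 the libraries of the highest and lowest group, given above, did not overlap. Nfat5 was highest at DRF ZT20 (55 ± 21.8 TPM) and lowest at DRF ZT8 (35.5 ± 3.12 TPM). Akr1b3 was highest at DRF ZT4 (124 ± 215 TPM) and lowest at DRF ZT24 (16.9 ± 3.83 TPM). The first of these means came from 1 mouse: its libraries were at 20.2, 15.9, 14.3 and 446 TPM. Slc5a3 was highest at NRF ZT16 (152 ± 101 TPM), followed by DRF ZT16 (150 ± 23.9 TPM), and lowest at NRF ZT4 (65.5 ± 20.3 TPM). Slc6a12 was highest at DRF ZT8 (11.4 ± 4.9 TPM) and lowest at DRF ZT24 (2.47 ± 1.54 TPM, all SD, n = 4).

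Regimens were then compared at the same clock time by contrasts of 1 limma fit of all 14 groups. At ZT4, Slc6a6 was lower under DRF, and it was the only call among the 35 contrasts of the 5 genes. Its DRF libraries, at 137 to 155 TPM, did not overlap with the NRF libraries at 214, 168, 239 and 188 TPM. The difference was -0.46 ± 0.11 on the log2 scale, a ratio of 0.725 (adjusted p = 0.00126), and 31.1% of all genes were called at ZT4. Of these 3716 genes, 1095 were higher under DRF, against 2136 of the 3785 called with median-of-ratios scaling, with which Slc6a6 was also lower (-0.36, adjusted p = 0.0132). The call ended when all 14 Psca-rich libraries were left out, which removed 3 of the 8 libraries at ZT4 (-0.39, adjusted p = 0.0772).

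Later in the day the sign of the Slc6a6 difference turned, without a call. At ZT8 the DRF libraries (256 to 261 TPM) lay within the range of the NRF ones (195, 221, 170 and 268 TPM), with a difference of 0.29 ± 0.11 (adjusted p = 0.0617), and leaving out NRF ZT8 replicate 4, the highest of them, gave an adjusted p of 0.0112. At ZT16 the DRF libraries (246, 234, 264 and 241 TPM) were all above the NRF ones (180, 223, 214 and 188 TPM), with a difference of 0.3 ± 0.11 (adjusted p = 0.0882). Both were called with median-of-ratios scaling (0.31 and 0.35, adjusted p = 0.0483 and 0.0499) and with quality weights (0.29 each, adjusted p = 0.04 and 0.0387). With TPM, none of the 5 genes was called by limma at ZT0, ZT8, ZT12, ZT16, ZT20 or ZT24, where 20.2%, 17%, 21.3%, 8.76%, 19% and 16% of all genes were. At an unadjusted p under 0.05 there was 1 gene each at ZT8 and ZT16, Slc6a6 in both, and at ZT20, where Nfat5 was higher under DRF by 0.49 ± 0.24 (adjusted p = 0.146).

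Joint tests over the whole day asked whether the profiles differed at all. At the same clock time, Slc6a6 was the only one of the 5 genes called, with a root mean square difference of 0.26 on the log2 scale (limma, adjusted p = 0.000544), where 59.5% of all genes were called. At the same meal time, with DRF set against NRF 12 h later, Slc6a6 gave 0.42 (adjusted p = 2.55e-08) and Slc5a3 gave 0.57 (adjusted p = 0.0472), where 56.6% of all genes were called. The Slc5a3 value held in only 19 of the 56 fits without 1 library and had its highest adjusted p, 0.14, without NRF ZT4 replicate 1. For Slc6a6 both joint calls were kept in every fit without 1 library, and the clock-time call ended without the Psca-rich libraries (0.24, adjusted p = 0.0501).

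The mean over the day did not differ by the test for any of the 5 genes (0 of 5 by limma, none at an unadjusted p under 0.05, and 12.6% of all genes). The largest difference was that of Slc6a12, 0.37 ± 0.32 higher under DRF (adjusted p = 0.484). Between ZT24 and ZT0, the same clock time 1 day apart, no call was made under DRF (0 of 5, and 0% of all genes) or NRF (0 of 5, and 0.602% of all genes), with none of the 5 at an unadjusted p under 0.05. Akr1b3 had the widest such interval, with a difference of -1.4 ± 1.08 under NRF.

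Since 4 of the 5 genes moved with tissue markers, the fits were repeated with a marker level of each library as a covariate: the mean standardised level of Upk3a and Psca, or that of the 4 inner medulla markers. The standard errors fell for all but Slc6a6. At ZT4 that of Akr1b3 went from 1.08 to 0.53 with Upk3a and Psca, and that of Slc6a12 from 0.83 to 0.52, or to 0.37 with the inner medulla markers. The inner medulla list contains Slc14a2, which responds to tonicity itself and is counted in the tonicity-responsive list below, so the covariate can also take out regulated variation.

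Slc6a12 gained calls with both covariates, with which the shares of all genes called also rose. With Upk3a and Psca these shares were 39.6% for the DRF rhythm, 51.6% for the difference in rhythm and 33.6% at ZT4. With the inner medulla markers they were 43.6%, 53.3% and 36.8%, against 36.6%, 46.5% and 31.1% with no covariate. With Upk3a and Psca as covariate its DRF amplitude was 1.1 ± 0.17 with a peak at ZT8.3 ± 0.55 h (limma, adjusted p = 4.56e-05), and with the inner medulla markers it was 0.89 ± 0.13 with a peak at ZT7.87 (adjusted p = 4.7e-05). The difference in rhythm between regimens was then called, at 1.11 ± 0.31 (adjusted p = 0.00826) and 1 ± 0.22 (adjusted p = 0.000625), against 0.79 ± 0.43 (adjusted p = 0.266) with no covariate. At ZT4, where the DRF libraries were at 7.63, 3.67, 3.66 and 24.6 TPM and the NRF libraries at 0.0494, 2.15, 4.31 and 8.29 TPM, the groups overlapped and the difference was 1.22 ± 0.83 with no covariate (adjusted p = 0.28). It became 1.75 ± 0.52 (adjusted p = 0.00796) and 1.39 ± 0.37 (adjusted p = 0.00286) with the covariates, higher under DRF. These calls of Slc6a12 with a covariate were kept in each of the 56 fits that left out 1 library. For the DRF rhythm, fitted to DRF libraries only, the fits without an NRF library could not change the call.

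Leaving libraries out gave a mixed result for the same gene. Without the 14 Psca-rich libraries and with no covariate, the difference in rhythm of Slc6a12 was 1.28 ± 0.38 (limma, adjusted p = 0.0205). It was 1.33 ± 0.4 without the 13 libraries rich in adipose markers (adjusted p = 0.0262) and 0.99 ± 0.33 with quality weights (adjusted p = 0.0284). Without the 5 libraries low in Slc14a2 it was 0.78 ± 0.4 (adjusted p = 0.241), and the ZT4 difference was 0.63 ± 0.79 (adjusted p = 0.591). NRF ZT4 replicate 1, the library with 1 read of Slc6a12 and Slc14a2 at 0.282 TPM, is among those 5.

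**Figure D4:**
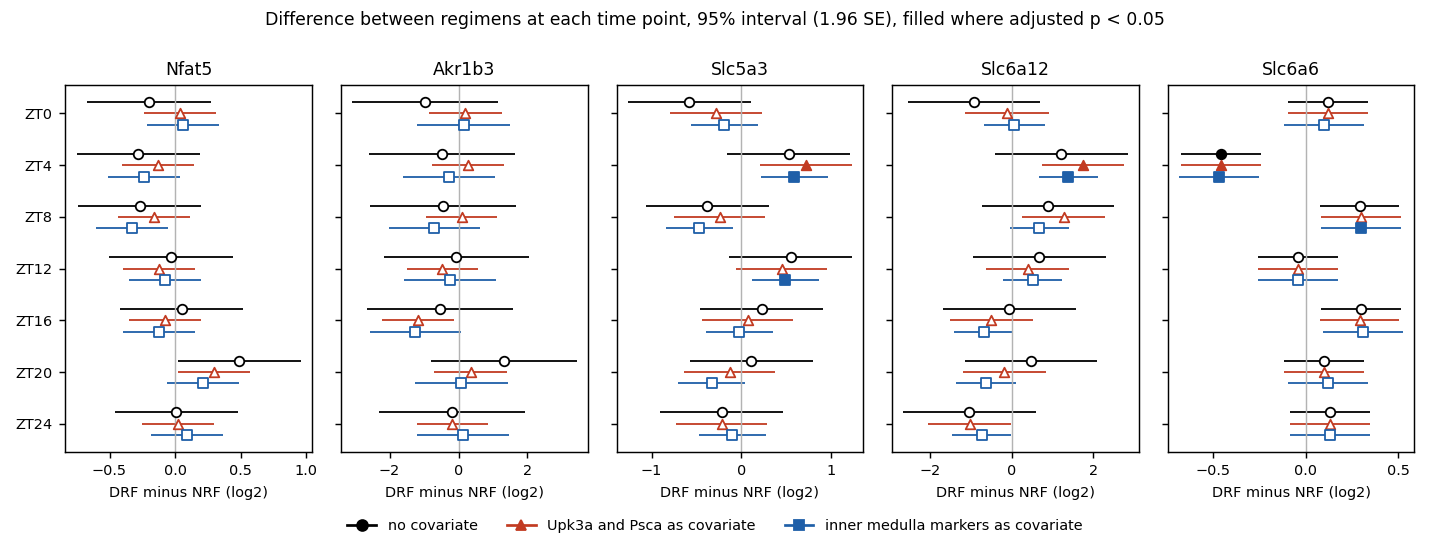
DRF minus NRF on the log2(TPM + 1) scale (horizontal) at each of the 7 time points (vertical) for the 5 genes, with no covariate, with Upk3a and Psca, or with the inner medulla markers as covariate. Bars are 95% intervals and filled symbols mark an adjusted p under 0.05: Slc6a6 at ZT4 is filled in all 3 fits, and Slc5a3 and Slc6a12 at ZT4 in both fits with a covariate.

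Slc5a3 also gained calls with the covariates. At ZT4 its DRF libraries were at 110, 54, 69.5 and 170 TPM and its NRF libraries at 43.8, 57, 69.8 and 91.5 TPM, and the difference of 0.53 ± 0.35 (limma, adjusted p = 0.262) became 0.72 ± 0.26 with Upk3a and Psca (adjusted p = 0.0266) and 0.59 ± 0.19 with the inner medulla markers (adjusted p = 0.0107). The second covariate also gave a call at ZT12 (0.49 ± 0.19, adjusted p = 0.0453) and at the same clock time jointly (0.4, adjusted p = 0.00226). Over all genes 27.4% and 70.7% had these calls. The 24-h call of Slc5a3 under DRF was lost with this covariate (0.27 ± 0.1, adjusted p = 0.0688). With Upk3a and Psca, the ZT4 call ended without DRF ZT4 replicate 1 or 4 or NRF ZT4 replicate 1 or 3 (adjusted p = 0.0541 to 0.0998). With the inner medulla markers, the ZT4 call ended without DRF ZT4 replicate 1 (adjusted p = 0.0629), and the ZT12 call without DRF ZT12 replicate 2 or 4 or NRF ZT12 replicate 1, 3 or 4 (adjusted p = 0.0616 to 0.185). The 12-h component under DRF was stronger in the test with either covariate, at 0.38 ± 0.07 (adjusted p = 0.000895) and 0.45 ± 0.06 (adjusted p = 1.76e-05). It was called for 38.8% and 37.8% of all genes in these fits. The meal-time difference was also called with both, at 0.62 (adjusted p = 0.000407) and 0.55 (adjusted p = 1.38e-05), where 66.4% and 69.8% of all genes were.

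For Nfat5 only the inner medulla covariate gave calls. The DRF amplitude was then 0.19 ± 0.05 with a peak at ZT21.9 (limma, adjusted p = 0.0121) and the difference in rhythm 0.23 ± 0.07 (adjusted p = 0.0226). The latter held in each of the 56 fits without 1 library (adjusted p up to 0.0455), and with Upk3a and Psca it was 0.18 ± 0.08 (adjusted p = 0.108). Akr1b3 had no call with either covariate although its values moved far. Its difference at ZT0 went from -0.97 to 0.2 with Upk3a and Psca, that at ZT20 from 1.31 to 0.08 with the inner medulla markers, and its difference at ZT4 was -0.47 ± 1.08 with none and 0.28 ± 0.53 with Upk3a and Psca. The values of Slc6a6 moved little: its ZT4 difference was -0.46 to -0.47 in all 3 fits and its DRF amplitude 0.3 to 0.31. Its ZT8 difference crossed the threshold with the inner medulla markers (0.3 ± 0.11, adjusted p = 0.0453) in the full set and in 49 of 56 fits without 1 library. It ended without any 1 of the 4 DRF libraries or of replicates 1, 2 and 3 of NRF at ZT8 (adjusted p = 0.0581 to 0.222).

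Other genes of osmolyte handling were set beside the 5. Of 17 listed, 14 were tested, and 8 had a 24-h rhythm called under NRF and 5 under DRF, 7 a difference in rhythm, 4 a difference at ZT4 (2 higher and 2 lower under DRF) and 1 a lower mean over the day. Over all genes the shares called were 53%, 36.6%, 46.5%, 31.1% and 12.6%, in the same order, near those of the list. Their median ZT4 difference was -0.02, against -0.08 over all genes. Gpcpd1, which breaks down glycerophosphocholine, was lower under DRF at ZT4, ZT8 and ZT12 and higher at ZT20, by -0.3, -0.41, -0.38 and 0.25 (adjusted p = 0.00354, 0.000257, 0.000565 and 0.0256), and lower over the day (-0.13, adjusted p = 0.00414). Impa1, which frees myo-inositol from its phosphate, was higher under DRF at ZT4 (0.26, adjusted p = 0.00218) and lower at ZT0, ZT20 and ZT24 (-0.27, -0.24 and -0.3, adjusted p = 0.00286, 0.0092 and 0.000996). For Impa1, the direction at ZT4 was thus that of Slc5a3, whose own difference was called with a covariate only.

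The tonicity-responsive list had 10 genes, of which 7 were tested. A 24-h rhythm was called for 4 under DRF and 2 under NRF, a difference in rhythm for 2, and a difference at ZT4 for 1, higher under DRF, beside 36.6%, 53%, 46.5% and 31.1% of all genes. Their median ZT4 difference was 0.41, against a median of -0.08 over all genes. With median-of-ratios scaling the median over all genes was 0.02, and the 7 listed genes ran from -0.07 (S100a4) to 1.27 (Sgk1). The list holds Slc14a2, itself an inner medulla marker, and Aqp2, which followed these markers. The part of tissue composition in the median of the list was not tested. Sgk1, an aldosterone- and tonicity-responsive kinase gene, was higher under DRF at ZT4 (1.17 ± 0.35, limma, adjusted p = 0.00907), at ZT12 (1.36 ± 0.35, adjusted p = 0.00358) and over the day (0.46, adjusted p = 0.0211). Aqp2, the vasopressin-regulated water channel gene, had the group means most like those of Slc6a12 among all genes tested. With no covariate its rhythm was called under DRF, with an amplitude of 0.82 ± 0.15 and a peak at ZT9.67 (adjusted p = 0.000671), and so was its difference in rhythm (0.79 ± 0.22, adjusted p = 0.00686). Within groups Aqp2 gave an r of 0.76 with Slc6a12 and 0.86 with the inner medulla markers over the 56 libraries.

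The list of near relatives held 8 genes, all tested, among them Mrps6, the ribosomal protein gene that overlaps Slc5a3. Of these 8, 3 were called at ZT4, where 31.1% of all genes were. All 3 were lower under DRF: Akr1b7 (-0.63, adjusted p = 0.0142), Akr1b10 (-0.27, adjusted p = 0.00649) and Nfatc2 (-0.42, adjusted p = 0.00305). With median-of-ratios scaling the calls of Akr1b7 (-0.54, adjusted p = 0.0511) and Akr1b10 (-0.17, adjusted p = 0.137) were lost. Akr1b10 and Nfatc2 were also lower over the day (-0.09 and -0.14, adjusted p = 0.0448 and 0.0198). In this list, 1 gene had a rhythm called under DRF, which was Mrps6, and 2 had one under NRF. Over all genes these shares were 36.6% and 53%. Akr1b7, Akr1b8 and Akr1b10 resemble Akr1b3 in sequence and may share reads with it. Akr1b10 was steady at 31 to 47.1 TPM with a median of 38.4 TPM, above the median of 19.3 TPM of Akr1b3, while Akr1b7 lay at 3.54 to 14.5 TPM and Akr1b8 at 3.39 to 70 TPM. How far shared reads enter the values of Akr1b3 was not tested. Slc6a13, the neighbour and relative of Slc6a12 on chromosome 6, stayed between 104 and 203 TPM and had a difference in rhythm called (0.22, adjusted p = 0.0138).

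The genes whose 14 group means were most like those of each gene, by Pearson correlation of log2 means, were as follows, as a description that rests on few and partly noisy means. For Nfat5 they were Rasef (0.927), Sp1 (0.925) and Grhl3 (0.911), and for Akr1b3 they were Vcan, Gcnt3 (0.939 each) and Klrg2 (0.927). Slc5a3 was most like Tinagl1 (0.935), Rwdd4a (0.909) and Mrps6 (0.882). Slc6a12 was most like Aqp2 (0.894), Ranbp3l (0.845) and Cth (0.845), and Slc6a6 was most like Sephs2 (0.91), Frmd4b (0.905) and Dusp1 (0.895). Between the group means of the 5 genes themselves the correlation lay between -0.3 (Nfat5 with Slc6a12) and 0.62 (Nfat5 with Akr1b3). These values were below the r within groups of the genes that varied together between mice. Whether their time courses over the groups differed was not tested.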

How the data were processed

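Whole-kidney poly(A) libraries of 56 mice (14 groups of 4) were, per the labels, sequenced from both ends (BGISEQ-500). HISAT2, Bowtie2, RSEM, mm10 and GRCm38.p6 are named in the submitters' processing notes, with no role or order. The values deposited by the authors were named TPM but were a score: log2(CPM + 1) of a gene divided by its length and scaled to nearly the same sum per library (sums of 999145 to 999753, highest value 1266). The design had assumed TPM on a linear scale. Library sizes (24.77 to 28.85 M reads) and whole reads were therefore recovered. GENCODE union exon lengths gave whole reads for 13850 genes. For 1034 more, the length was searched for as one that gave whole reads, and both sets made up 87.41% of genes. A value counted as whole within 0.05 of a whole read, widened by 1e-06 per read. Genes were kept if a share of at least 0.9 of their values above 0 was whole. Among them 99.85% of such values were whole, a share partly set by this selection. Genes with fractional reads were left out of TPM and tests. A count model was not used. Genes with a mean of at least 1 TPM (11966) were tested on log2(TPM + 1) with limma 3.58.1 in R 4.3.3 (trend, Benjamini-Hochberg adjustment over all of them, threshold 0.05), and the script was tested on simulated data. ZT24 was put at the phase of ZT0. SE of peaks are by the delta method. Each joint value is the root mean square of 6 differences. The 5 genes, gene lists and tests were chosen with earlier results of these data known. Named by rule were the 5 genes, listed genes called for the mean over the day or at 3 or more time points, genes that may share reads, and the 3 most alike in group means; Aqp2's test values were added after they were seen. Replicates were separate samples in the labels, and p-values measure the spread between them. The labels give no sequencing batch. The 1 NRF ZT24 library whose column number matched no label entered its group with no number. 1 further gene of the inner medulla list set in the design is not reported here, and that list was used without it. Promoter windows came from RefSeq.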

Additional observations from a re-analysis of the deposited data

Results flagged for a closer look

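In 70 groups of 4 libraries (5 genes in 14 groups), the gap of the most distant library on the log2(TPM + 1) scale, as a share of the range of the group, was set against Dixon's limit at the 95% level. It was exceeded in 9, and chance gives about 1 in 20. All 9 were high libraries. For Akr1b3 they were DRF ZT4 replicate 4 (share 0.904, 446 TPM), DRF ZT16 replicate 1 (0.939, 106 TPM), NRF ZT8 replicate 1 (0.886, 212 TPM), NRF ZT12 replicate 1 (0.927, 352 TPM), NRF ZT16 replicate 2 (0.856, 402 TPM) and NRF ZT24 replicate 3 (0.852, 23.1 TPM). For Nfat5 they were DRF ZT0 replicate 4 (0.897, 49.7 TPM) and DRF ZT4 replicate 4 (0.874, 71.2 TPM), and for Slc6a12 it was NRF ZT12 replicate 1 (0.874, 30 TPM). Psca was at 192 to 574 TPM in the libraries of DRF ZT4, DRF ZT16, NRF ZT8, NRF ZT12 and NRF ZT16, and at 33.9 TPM in DRF ZT0 replicate 4 and 13.1 TPM in NRF ZT24 replicate 3. Its part in these values was not tested beyond the relations reported above.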

How the results depend on the processing

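Of 704 values under alternatives of 44 results of the 5 genes (24-h rhythms, the 12-h component under DRF, joint tests, means over the day and differences called in some fit), 633 kept their direction and side of the threshold, 21 lost a call, 38 gained one and 12 changed sign. Rhythm and joint values are positive by construction, so only the means over the day and the differences at a time point could change sign. Of 576 values of the other, uncalled differences, 92 had the other sign. For 24-h rhythm under DRF (3 called, with 36.6% of all genes), the count was 1 without the libraries low in Slc14a2 (35.2%). It was 1 to 3 without replicates or single libraries, and under NRF (1 called) it was 1 to 2. The 12-h count under DRF (1, with 31.1% of all genes) was 2 with array weights (45.8%), 0 without Psca-rich libraries (31.5%) and 0 to 1 without replicates. Over the 7 time points (1) it was 3 with median-of-ratios scaling, 3 with Upk3a and Psca, 5 with inner medulla markers, 7 with array weights, 0 without Psca-rich libraries, 2 without those low in Slc14a2, and 1 to 2 without replicates. The share of all genes called moved too: at ZT4 it was 31.1% as reported, 33.6% with Upk3a and Psca, 36.8% with inner medulla markers, 50.6% with array weights, 20.7% without Psca-rich and 27.9% without Slc14a2-low libraries. The count for difference in rhythm (0, with 46.5% of all genes) was 1 with Upk3a and Psca (51.6%), 2 with inner medulla markers (53.3%) and 2 with array weights (52.3%). It was 1 without Psca-rich libraries (39.2%), 1 without adipose-rich libraries (36.5%) and 0 to 2 without replicates. Jointly at clock time the count (1, with 59.5% of all genes) was 2, 3, 2, 0 and 2 in these 5 fits, in the same order, and 0 to 1 without replicates. The share of all genes was 67.3%, 70.7%, 81.5%, 52.9% and 47.7% in these 5 fits. The meal-time count (2, with 56.6% of all genes) was 3 with Upk3a and Psca (66.4%), with inner medulla markers (69.8%) and with array weights (79.3%). It was 1 with no filter on low values and 1 to 2 without replicates.

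Replicate numbers were not taken to pair the mice. At the same time point, 27 same-number pairs of a DRF and an NRF library had deviations correlated at -0.441 to 0.689 (median 0.0824, 13 above 0.1). The median over 81 pairs of other numbers was -0.0502, and the difference was not tested. With the replicate block the meal-time count was 1, since the Slc5a3 call was lost (adjusted p = 0.0517), and the block changed no other call.

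The mesor difference of Nfat5 (-0.02) became 0.01 with median-of-ratios scaling, and deposited values, 0.03 without adipose-rich libraries, and lay at -0.07 to 0.01 without replicates. That of Akr1b3 (-0.13) became 0.02 with array weights, 0.08 without Psca-rich libraries, 0.42 without adipose-rich libraries, and lay at -0.4 to 0.06 without replicates. The ZT4 difference of Akr1b3 (-0.47) became 0.28 with Upk3a and Psca, 0.2 without adipose-rich libraries, and lay at -0.97 to 0.28 without replicates. The cause was not tested. The alternatives of leaving out Psca-rich, Slc14a2-low or adipose-rich libraries and the other scalings of the relations were chosen after seeing the data. Under those scalings the r of the other 4 genes with markers lay at 0.54 to 0.93, and that of Slc6a6 with markers or genes moved to between -0.42 and -0.01. At a lowest level of 1 read, Slc6a12 is limited by counting as well as by mice.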
